A study of Saccharomyces cerevisiae with 4 samples.

Results

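The enzymes that turn tryptophan into NAD, and those that finish NAD from nicotinic acid, were followed in transcripts of *ccw12*Δ and wild-type yeast. The 10 genes are *BNA1*, *BNA2*, *BNA3*, *BNA4*, *BNA5*, *BNA6*, *NPT1*, *NMA1*, *NMA2* and *QNS1*, out of 5656 genes with a probe set that names them alone. They were taken by symbol as the members of one pathway, but the pathway itself was chosen by measured values of the same comparison: the signals of *BNA2* and *BNA3* on these arrays were known to be among the largest increases in *ccw12*Δ. The differences between the strains are therefore given for the 10 genes as a description, without a test. Each gene is represented by its brightest probe set over all 4 arrays, and all 10 were bright enough to enter the set of 4532 genes tested. *BNA2* entered only through its *ccw12*Δ signals, as both its wild-type signals lie under the level used for that filter.

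The *ccw12*Δ strain, MEY12A, carries *ccw12::URA3*, a disruption of the gene for an abundant mannoprotein of the cell wall. It was derived from the wild-type strain SEY6210, a haploid of mating type α. Both strains carry the auxotrophic alleles *trp1-Δ901*, *his3-Δ200* and *ura3-52* (complemented in MEY12A by the marker), auxotrophic *leu2* and *lys2* alleles, and *suc2-Δ*, and are *GAL*. Cells were grown in rich YPD medium with adenine to an OD600 of 1, and each of the 4 arrays (2 per strain) received RNA from a pool of 3 preparations. MEY12A is a single deletion strain, so a difference between the strains cannot be told apart from any other difference this isolate carries.

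In yeast, NAD is made de novo from tryptophan, or salvaged from nicotinic acid and nicotinamide. The de novo route, the kynurenine pathway, opens the indole ring of tryptophan, passes through kynurenine and hydroxyanthranilate, and ends in quinolinate, from which nicotinic acid mononucleotide is formed. There it meets the salvage route, and the last steps, adenylylation and amidation, are common to both. Since *TRP1* is deleted in both strains, their cells cannot make tryptophan and take it up from the medium.

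The arrays were first compared for features that bear on these genes. The signal of *CCW12* was 4260 and 3919 on the *ccw12*Δ arrays, against 24314 and 24118 on those of the wild type, and that of *URA3*, dim throughout, was 59.5 and 54.2 against 3.9 and 6.7. How the *CCW12* probes lie relative to the disruption was not analysed here. *TRP1* lay at 5.7 or less on all arrays, the 4 markers of α cells had signals of 1331 to 11687, and the 5 markers of **a** cells had 1.2 to 270.8. The wild-type arrays differed more from each other (SD of the log2 difference over the tested genes 0.63) than the *ccw12*Δ arrays did (0.40), and the 3′ probes of all 3 control genes exceeded the 5′ probes most on wild type replicate 1 (for *ACT1* 1.49-fold on both *ccw12*Δ arrays, against 2.99-fold there and 1.38-fold on wild type replicate 2). Genes of chromosomes II, IX and X had median log2 ratios (*ccw12*Δ over wild type) of 0.94, 0.89 and 1.06, while the medians of the other 13 nuclear chromosomes lay between -0.06 and 0.21. *BNA1*, *BNA2* and *BNA3* lie on chromosome X and *BNA4* on chromosome II, so each of their values is set beside that of the chromosome.

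Among the 10 genes, *BNA2* and *BNA3* had signals 6.54-fold and 7.02-fold higher in *ccw12*Δ, and no other member reached a 2-fold difference in either direction. *BNA4* and *BNA1* were above the wild type on both *ccw12*Δ arrays by smaller factors, *BNA5* and *QNS1* were below it, and the signals of *BNA6*, *NPT1*, *NMA1* and *NMA2* overlapped between the strains. All 4 members with every *ccw12*Δ signal above every wild-type signal are those of chromosomes II and X, whose medians were 0.94 and 1.06. The share of all tested genes without overlap was not counted, so nothing is read from this number. By limma with Benjamini-Hochberg adjustment (threshold 0.05), 5.30% of the 4532 genes were higher in *ccw12*Δ and 0.596% were lower, and 2 of the 10 members were among the higher and 0 among the lower. At an unadjusted p under 0.05, which 18.1% of all genes met as higher and 3.95% as lower, the counts of members were also 2 and 0. By a fold rule after the methods of the study (all 4 ratios of a mutant to a wild-type array on the same side of 1, and their mean on the log2 scale at 1 or above, or at -1 or below), 10.4% of genes were higher and 2.03% were lower, again with 2 members among the higher and 0 among the lower. Since *BNA2* and *BNA3* were chosen with these values known, nothing is read from these counts. Of all genes called by limma 89.9% were higher, against 81.2% with quantile normalization, 67.4% with each array centred on its median and 40.7% with chromosome-centred arrays.

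**Figure D1:**
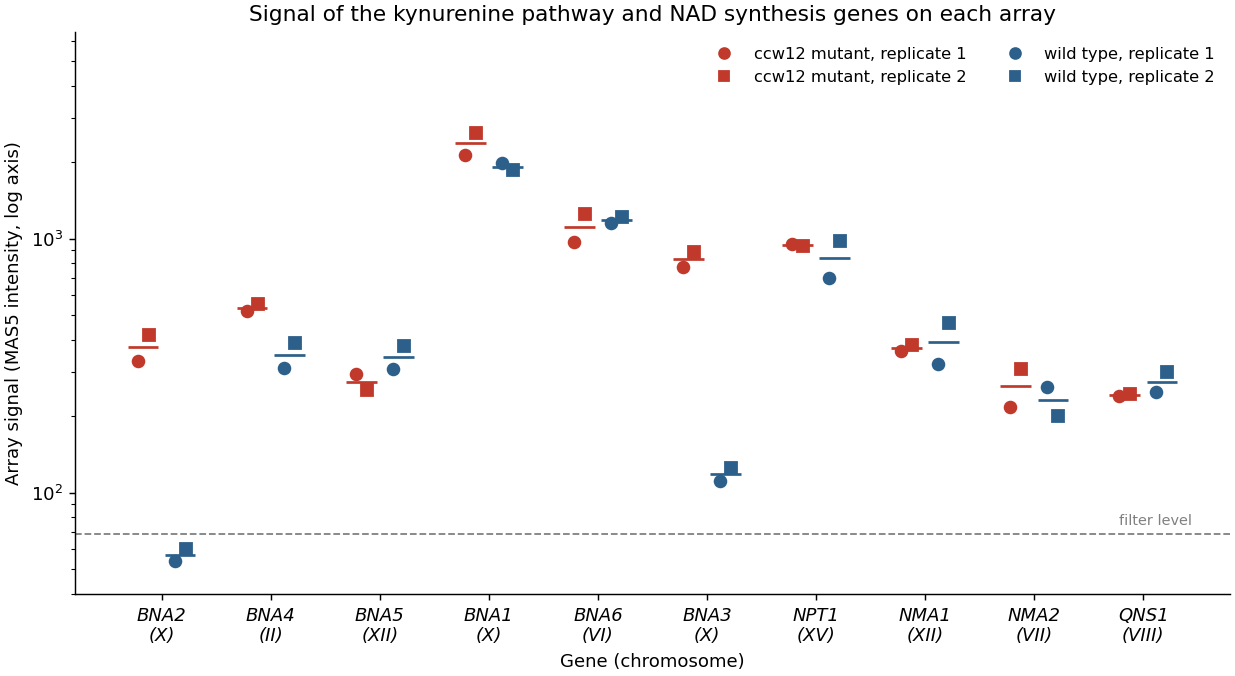
Signal of each of the 10 genes on each array (y axis, MAS5 intensity, log axis), with the ccw12 mutant (red) left of the wild type (blue), circles for replicate 1, squares for replicate 2, short lines for the mean of 2 arrays, and a dashed line at the filter level for dim genes (69.0). BNA2 and BNA3 are the genes with a wide gap between the strains, and both wild-type signals of BNA2 lie under the dashed line. Heights of different genes come from different probes and are not comparable.

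*BNA2* (YJR078W) encodes the dioxygenase that opens the tryptophan ring, the first and committed step of the pathway. Its signals were 328.9 and 419.6 in *ccw12*Δ, against 53.7 and 60.1 in the wild type. The lower *ccw12*Δ signal was thus 5.47 times the higher wild-type signal, and the strains were far from overlapping. The log2 ratio was 2.71 (SE 0.29, n = 2 arrays per strain), or 6.54-fold, with the 4 ratios between 5.47 and 7.81. Both wild-type signals lie under the level at which genes were filtered as dim, a signal of 69.0. Set against that level in place of the wild-type signals, *BNA2* was at least 5.38-fold higher.

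*BNA3* (YJL060W) encodes the aminotransferase that converts kynurenine to kynurenic acid, a side branch that leaves the route to NAD. Its signals were 776.5 and 887.6 in *ccw12*Δ, against 111.3 and 125.7 in the wild type. All 4 signals were above the filter level, and the strains did not overlap. The log2 ratio was 2.81 (SE 0.28), or 7.02-fold, with the 4 ratios between 6.18 and 7.97.

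The remaining enzymes of the kynurenine route did not share the size of these differences. *BNA4* (YBL098W), for the kynurenine monooxygenase, had signals of 517.7 and 551.2 in *ccw12*Δ, against 310.7 and 388.5 in the wild type. The groups did not overlap, and the log2 ratio was 0.62 (SE 0.29), with ratios between 1.33 and 1.77. *BNA5* (YLR231C), for the kynureninase that acts on the product of Bna4p, had signals of 293.2 and 253.8 in *ccw12*Δ, against 306.4 and 378 in the wild type. Here the *ccw12*Δ signals were the lower ones, without overlap, at a log2 ratio of -0.32 (SE 0.28) and ratios between 0.671 and 0.957. The nearest signals of *BNA5*, 293.2 in *ccw12*Δ and 306.4 in the wild type, were closer together than the replicates of either strain.

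*BNA1* (YJR025C), for the hydroxyanthranilate dioxygenase, had signals of 2142 and 2618 in *ccw12*Δ, against 1985 and 1861 in the wild type. Both *ccw12*Δ signals were higher, but the replicates of *ccw12*Δ lay further apart than the nearest signals of the strains. The log2 ratio was 0.30 (SE 0.26), with ratios between 1.08 and 1.41. *BNA6* (YFR047C), for the phosphoribosyltransferase that uses quinolinate and so closes the de novo route, had signals of 974.4 and 1246 in *ccw12*Δ, against 1151 and 1222 in the wild type. Both wild-type signals fell between those of *ccw12*Δ, and the log2 ratio was -0.11 (SE 0.28).

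The genes at and after the meeting point of both routes differed little between the strains. *NPT1* (YOR209C), for the phosphoribosyltransferase that brings in nicotinic acid, had signals of 952.2 and 932.7 in *ccw12*Δ, against 701 and 976.8 in the wild type, a log2 ratio of 0.19 (SE 0.30). The *ccw12*Δ arrays were nearly equal, and both lay between the wild-type arrays. *NMA1* (YLR328W) and *NMA2* (YGR010W) encode the paralogous enzymes of the next step, which attach the adenylate. *NMA1* had signals of 362.7 and 381.5 in *ccw12*Δ, against 321.5 and 466.7 in the wild type, a log2 ratio of -0.06 (SE 0.30). As with *NPT1*, the *ccw12*Δ signals lay inside the range of the wild type.

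*NMA2* had signals of 217.4 and 307.2 in *ccw12*Δ, against 262.1 and 200.3 in the wild type, a log2 ratio of 0.17 (SE 0.31). It is the only member with several probe sets that name it alone, and its 3 probe sets gave mean log2 ratios of 0.17, 0.18 and 0.17. Since *NMA1* and *NMA2* are paralogs, whether the transcripts of one reach the probes of the other was not tested. *QNS1* (YHR074W), for the glutamine-dependent NAD synthetase of the last step, had signals of 241.2 and 245.3 in *ccw12*Δ, against 248.7 and 298.3 in the wild type. The *ccw12*Δ signals were the lower ones without overlap, at a log2 ratio of -0.16 (SE 0.28) and ratios between 0.809 and 0.986. Its nearest signals, 245.3 in *ccw12*Δ and 248.7 in the wild type, were closer together than the replicates of either strain.

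Over the 10 genes the median log2 ratio was 0.18, the same to 2 decimals as over all 4532 genes tested (0.18). The 4 members of chromosomes II and X lay widely apart (0.30 and 0.62 for *BNA1* and *BNA4*, 2.71 and 2.81 for *BNA2* and *BNA3*). The 6 on other chromosomes had a median of -0.08, beside a median of 0.09 over all tested genes outside chromosomes II, IX and X. Those 6 lay between -0.32 and 0.19 with standard errors of 0.28 to 0.31, 4 of them below 0 and 2 above. With each array centred on its median, which put the median of all genes at -0.09, the signs of these 2, *NPT1* (-0.08) and *NMA2* (-0.10), turned, and *BNA1* was at 0.03. Between replicates, the members differed by 0.02 to 0.50 on the log2 scale on the *ccw12*Δ arrays and by 0.09 to 0.54 on the wild-type arrays. In 8 of the 10 genes wild type replicate 1 was the lower of the wild-type arrays. Over all tested genes the median log2 difference of wild type replicate 1 from replicate 2 was also below 0, at -0.09.

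Set among the genes of the same chromosome, the 4 members of chromosomes II and X separated into a pair above and a pair below. *BNA3* had the highest log2 ratio of the 301 genes tested on chromosome X and *BNA2* the second highest (rank 2), 1.75 and 1.65 above the chromosome's median. On the linear scale this left them 3.36-fold and 3.13-fold above it. *BNA1* held rank 264 of the same 301 genes, 0.76 below the median (difference -0.76), although its own ratio was above 1 on all 4 comparisons of arrays. *BNA4* held rank 244 of the 331 genes of chromosome II, with a difference of -0.32 from the median. When each array was centred chromosome by chromosome (the median deviation of a chromosome's genes from their wild-type means was taken off), *BNA3* and *BNA2* had log2 ratios of 1.74 and 1.64, while the signs of *BNA4* (-0.30) and *BNA1* (-0.77) turned. Of the members elsewhere, *BNA5* had the lowest place on its chromosome, with 18.8% of the genes of chromosome XII below it, and *NMA2* the highest, with 61.4% of those of chromosome VII below it.

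**Figure D2:**
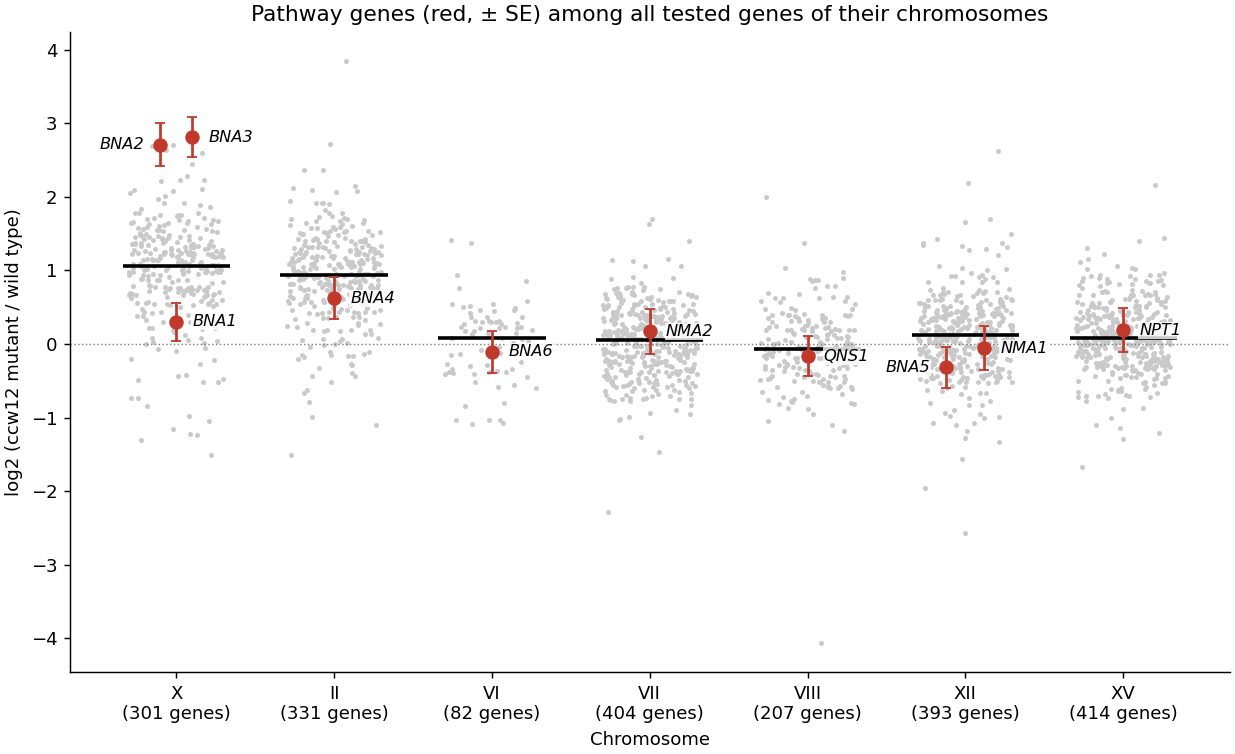
The log2 ratio of the ccw12 mutant to the wild type (y axis) for the 10 genes (red, with the standard error of the limma fit) among all tested genes of their own chromosome (grey points, spread sideways at random), with a black bar at the median of the chromosome. BNA2 (2.71) and BNA3 (2.81) stand at the top of chromosome X, BNA1 (0.30) and BNA4 (0.62) lie under the medians of their chromosomes (1.06 and 0.94), and BNA5 lies furthest from its median among the 6 others (difference -0.44).

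Genes next to the members were set beside them, 5 tested genes on each side in chromosomal order. None of the 10 around *BNA2* had a higher log2 ratio. Its rank of 2 on chromosome X fixed this in advance, as *BNA3*, at rank 1, is not among them. The 10 ranged from 0.69 to 2.60 with a median of 1.10. The highest was its downstream neighbour *YJR079W*, an uncharacterized reading frame, with signals of 347.9 and 552.4 in *ccw12*Δ, against 116.9 and 44.7 in the wild type (log2 ratio 2.60, SE 0.46). In the RefSeq annotation the reading frames of *BNA2* and *YJR079W* lie on the same strand and overlap by 17 bases, and whether transcripts of *BNA2* reach the *YJR079W* probes was not tested. On the other side lies *MIR1*, the divergently transcribed gene of the mitochondrial phosphate carrier, at a log2 ratio of 0.87 (SE 0.23), below the median of the chromosome.

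Around *BNA3* none of the 10 neighbours was higher either, which its rank of 1 on chromosome X likewise fixed. Its adjacent genes *NUP82*, for a nucleoporin, and *YHC3*, for a vacuolar membrane protein, had log2 ratios of 1.18 and 1.47 (SE 0.29 and 0.28), close to the median of 1.22 of the 10. Only *TDH1*, a glyceraldehyde-phosphate dehydrogenase gene 5 places away, had a lower signal in *ccw12*Δ among them, at -1.51 (SE 0.31). Around *BNA1* 8 of the 10 neighbours had higher log2 ratios, with a median of 0.89. Its neighbour *MDE1*, of the methionine salvage route, had 0.74 (SE 0.29). The other adjacent gene, *YJR027W*, a reading frame of a Ty element, had -0.74 (SE 0.26). Ty elements have many near-identical copies elsewhere in the genome, so its signal is uncertain as a measure of this position. Around *BNA4* 7 of the 10 neighbours were higher, with a median of 1.08, and the adjacent tested genes were *ATP1*, for a subunit of the ATP synthase, at -0.20 (SE 0.34) and *MRX3* at 1.23 (SE 0.29).

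**Figure D3:**
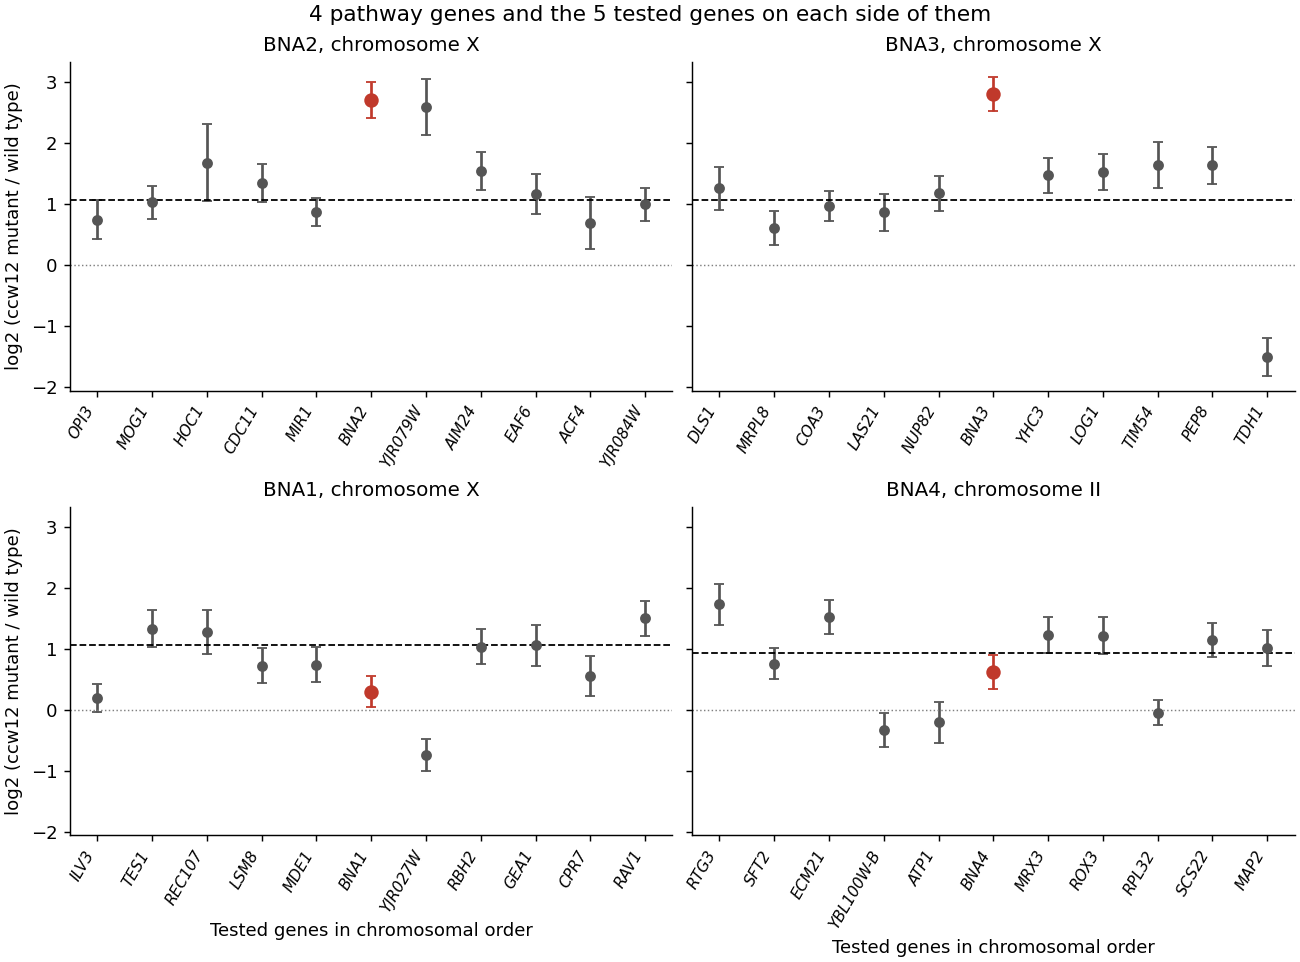
The log2 ratio of the ccw12 mutant to the wild type (y axis, with the standard error of the limma fit) for BNA2, BNA3, BNA1 and BNA4 (red) and for the 5 tested genes on each side (grey, in chromosomal order along the x axis), with a dashed line at the median of the chromosome. BNA2 and BNA3 exceed all 10 of their neighbours, which follows from their ranks of 2 and 1 on the chromosome. For BNA1 8 neighbours are higher, and for BNA4 7.

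The pattern of *BNA2* and *BNA3* over the 4 arrays was compared with that of every other tested gene, as the Euclidean distance between the log2 deviations from the mean of the wild type. Each of the pair, on opposite arms of chromosome X, had the other as its nearest gene among 4532, at a distance of 0.18. The next were *MNC1* of chromosome II (0.21) and *ARO10* of chromosome IV (0.24) for *BNA3*, and the same genes in the other order for *BNA2* (*ARO10* at 0.24, *MNC1* at 0.27). With 4 arrays in 2 strains this measure of likeness mostly reads the size of the difference between the strains and the deviations between replicates. *BNA2* and *BNA3* were chosen as among the largest increases, so their likeness follows in part from that choice. It is given as a description.

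Other genes that surround the pathway were then examined from lists of 39 genes, 32 of which were bright enough for the test. Of these 3 rose, *ARO10*, *ARO9* and *YIA6*, 0 fell, and 29 did not pass (limma, adjusted p under 0.05, against 5.30% of all genes higher and 0.596% lower). At an unadjusted p under 0.05, 5 were higher and 1 was lower (18.1% and 3.95% of all genes), and the fold rule took 4 as higher and 0 as lower (10.4% and 2.03% of all genes). The values of *ARO10* and *ARO9* were known when the lists were written, so nothing is read from their passing here or under other settings. The median log2 ratio of the 32 tested genes of the lists was 0.16, beside 0.18 for all genes. The p-values here measure the spread between pools of RNA, 2 per strain.

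*BNA7*, which lies on chromosome IV and encodes the formamidase that releases kynurenine after the step of Bna2p, had signals of 150.5 and 163.4 in *ccw12*Δ, against 351.7 and 273.6 in the wild type. The strains did not overlap, with *ccw12*Δ the lower, at a log2 ratio of -0.98 (SE 0.28). This did not pass the test (limma, adjusted p = 0.0787). With 1 array left out, the log2 ratio lay between -0.80 (without wild type replicate 1) and -1.17 (without wild type replicate 2). In the sequence of the route, the enzyme before *BNA7* thus had a log2 ratio of 2.71, and those after it had 0.62 (*BNA4*), -0.32 (*BNA5*), 0.30 (*BNA1*) and -0.11 (*BNA6*).

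Yeast also breaks down aromatic amino acids, tryptophan among them, by transamination and decarboxylation. Of the 3 genes of that route that were tested 2 passed, both with values known when the list was written. *ARO9*, for an aminotransferase that is induced by tryptophan and acts on aromatic amino acids, had signals of 1335 and 1577 in *ccw12*Δ, against 315.2 and 419.2 in the wild type, a log2 ratio of 1.997 (SE 0.30, adjusted p = 0.0155). *ARO10*, for the phenylpyruvate decarboxylase of the step after it, had 769.3 and 976.2 in *ccw12*Δ, against 130.6 and 119.2 in the wild type, a log2 ratio of 2.80 (SE 0.28, adjusted p = 0.00334). Neither lies on chromosome II, IX or X. *ARO8*, for the constitutive aminotransferase of the same family, overlapped between the strains (3510 and 3239 in *ccw12*Δ, against 2720 and 4350 in the wild type) at a log2 ratio of -0.03 (SE 0.28). *ARO80*, for the activator of *ARO9* and *ARO10*, was too dim to be tested, with signals of 43.5 and 43.7 in *ccw12*Δ, against 22.5 and 20.6 in the wild type. The call of *ARO9* was lost without *ccw12*Δ replicate 2 (adjusted p = 0.0530).

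*YIA6*, on chromosome IX, encodes a carrier that brings NAD into mitochondria. Its signals were 394.6 and 448.1 in *ccw12*Δ, against 168.3 and 200.1 in the wild type, a log2 ratio of 1.20 (SE 0.28, adjusted p = 0.0433). The median of chromosome IX was 0.89. With chromosome-centred arrays its log2 ratio was 0.32 (adjusted p = 0.614). It was the only one of the 6 transport genes tested that passed. *TAT1*, a permease that takes up tryptophan, lies on chromosome II and had the second highest log2 ratio of the group, 0.96 (SE 0.28, adjusted p = 0.0792), and *FUN26*, for a nucleoside transporter of the vacuole, had the lowest, -0.34 (SE 0.29). *TNA1*, the high-affinity permease for nicotinic acid, had signals of 2807 and 2840 in *ccw12*Δ, which lay between the 2021 and 3640 of the wild type.

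In the salvage of nicotinamide and nicotinamide riboside 0 of 9 tested genes passed (limma, and 0 at an unadjusted p under 0.05). The highest log2 ratio was that of *PNC1*, the nicotinamidase, at 0.61 (SE 0.36), and the lowest that of *NRK1*, the nicotinamide riboside kinase, at -0.49 (SE 0.58). The NAD kinases *UTR1* and *POS5* had log2 ratios of 0.43 and 0.41 (SE 0.38 and 0.29), and neither passed (0 also unadjusted). *YEF1*, also listed as a NAD kinase, was too dim to be tested. Its signals were 70.1 and 51.4 in *ccw12*Δ, against 7 and 20.4 in the wild type. *UTR1* lies on chromosome X, with a difference of -0.64 from the median of its genes, and *POS5* on chromosome XVI, 0.28 above that of its own. Of the 5 NAD-consuming enzymes tested 0 passed (1 at an unadjusted p under 0.05, beside 18.1% of all genes higher at that level), with *HST2*, for a cytoplasmic sirtuin, highest at 1.10 (SE 0.37, adjusted p = 0.119). Of the 4 genes of tryptophan synthesis tested 0 passed (0 unadjusted), with log2 ratios between -0.09 (*TRP5*) and 0.22 (*TRP2*).

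Expression of the *BNA* genes is known to be repressed by the NAD-dependent deacetylase Hst1p together with Sum1p and Rfm1p, and to be activated through Bas1p and Pho2p. Of these 5 regulators 3 could be tested and 0 passed (0 unadjusted). *SUM1* had signals of 496.4 and 704.7 in *ccw12*Δ, against 1813 and 620.8 in the wild type, a log2 ratio of -0.84 (SE 0.48). *HST1* had 637.1 and 960.2 in *ccw12*Δ, against 2361 and 697.2 in the wild type, a log2 ratio of -0.71 (SE 0.52). For both genes it was wild type replicate 1 that stood high, the other 3 arrays overlapped, and the log2 ratios against wild type replicate 2 alone were -0.07 and 0.17. *NRK1* showed the same form, with 398.8 on wild type replicate 1 and 94.3 to 157.3 on the other 3 arrays. *BNA2* and *BNA3*, which were chosen as large increases on these same arrays, had like ratios against both wild-type arrays. Their log2 ratios were 2.79 and 2.90 against wild type replicate 1, and 2.63 and 2.72 against replicate 2. *BAS1* had a log2 ratio of 0.13 (SE 0.29), and *RFM1* and *PHO2* were too dim to be tested.

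**Figure D4:**
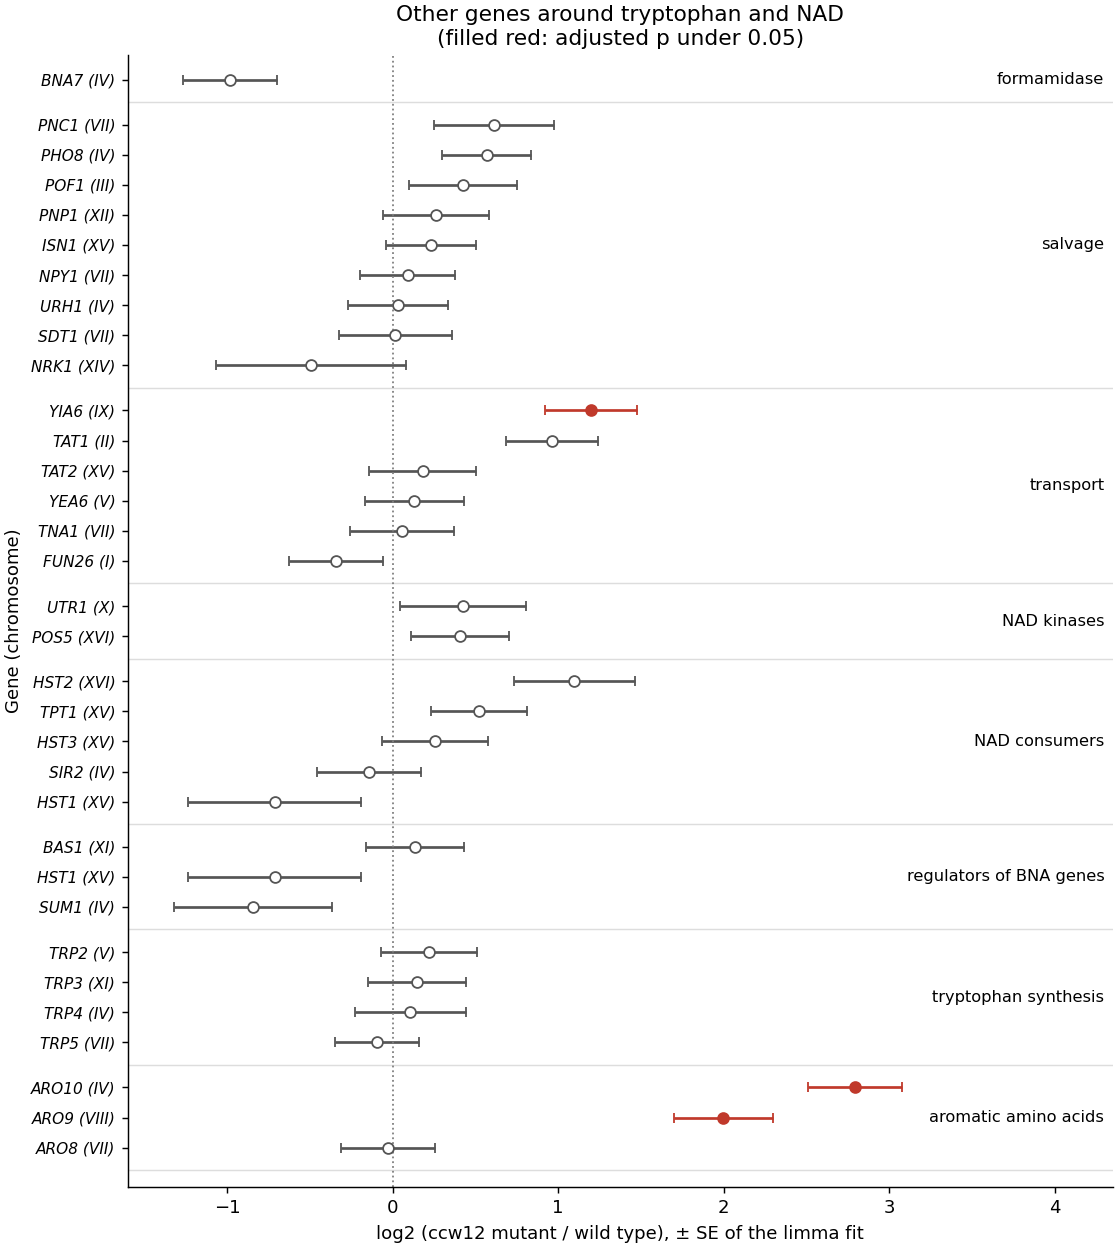
The log2 ratio of the ccw12 mutant to the wild type (x axis, with the standard error of the limma fit) for the 32 tested genes around tryptophan and NAD, in groups named at the right, with HST1 shown in 2 groups. Filled red points passed the test (adjusted p under 0.05): ARO10 (2.80), ARO9 (1.997) and YIA6 (1.20). Open points did not.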

How the data were processed

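Total RNA of MEY12A and SEY6210 was hybridized to 4 Affymetrix arrays of 1 colour (the Yeast Genome S98 design), 2 for each strain. The deposited intensity values, 1 linear signal per probe set and array, were made by the authors with GCOS, and the submitters' processing notes name MAS5. Their scaling target was not given in the sources used here. For wild type replicate 2 one label names SEY6211, while its title and strain name SEY6210, which was used.

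Of 9335 probe sets (60 controls), the platform annotation names 1 gene for 6504, several for 328 and none for 2443. The brightest single-gene probe set stood for each of 5656 genes. Names and gene order came from the RefSeq table by locus tag. Before log2, 19 signals of zero were raised to 0.1. The 4532 genes whose mean log2 signal reached the 25th percentile (6.11) entered the test, made with limma 3.58.1 in R 4.3.3 (lmFit, eBayes with trend, prior degrees of freedom 6.71) and Benjamini-Hochberg adjustment. The step was tested on simulated data with noise of equal spread in both strains and no shift of whole chromosomes. The arrays themselves differed from this in spread and in chromosomes II, IX and X. The number of arrays limits the precision. Summaries and plots used Python 3.11.15 and matplotlib 3.10.9.

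The members and the gene lists were chosen with earlier results of these data known. Genes named are the members, *CCW12*, *URA3*, *TRP1*, genes of the lists that passed (otherwise the highest and lowest of a list), adjacent genes of members on chromosomes II and X, and the 3 genes nearest in pattern to *BNA2* and *BNA3*. *TDH1*, *ARO8*, *ARO80*, *TNA1*, *TAT1*, *FUN26*, *YEF1*, *HST1*, *BAS1*, *RFM1*, *PHO2* and *NRK1* as a replicate pattern were named after their values were seen. Present calls were not used, and promoter sequences were not analysed here.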

Additional observations from a re-analysis of the deposited data

How the results depend on the processing

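With 240 genes higher, 27 lower and 3 of the other pathway genes passing, the counts depended on scaling and on single arrays. Higher genes numbered 95 with quantile normalization, 29 with each array's median as its centre, 56 centred on genes of the other chromosomes than II, IX and X, 11 with chromosome-centred arrays and 33 without the filter on dim genes. Lower genes numbered 14 with centring on the median or on genes of those other chromosomes, 16 with chromosome-centred arrays and 6 without the filter. The replicate numbers did not pair the arrays (correlation of the replicate differences -0.14). With the replicate block there were 505 higher and 120 lower genes and 6 other pathway genes. With the crossed replicate block, chosen after seeing the data, there were 514, 111 and 6. *BNA7* then passed, with adjusted p = 0.0434 and 0.0369, and it also passed without wild type replicate 2 (adjusted p = 0.00230). Over the other alternatives its adjusted p was 0.0617 to 0.401. Higher genes, lower genes and other pathway genes numbered 122, 25 and 2 without *ccw12*Δ replicate 1, 62, 14 and 1 without *ccw12*Δ replicate 2, 624, 98 and 5 without wild type replicate 1, and 989, 444 and 10 without wild type replicate 2. The strain left with 1 array is then assumed to vary like the other.

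In the fits with all 4 arrays, the members that passed were *BNA2* and *BNA3*. Only 1 of them passed with chromosome-centred arrays and 1 with a filter at the 50th percentile, where *BNA2* was not tested. Since both were chosen with their values known, nothing is read from these passes. Without wild type replicate 2, the members that passed were not limited to *BNA2* and *BNA3*. There the log2 ratio of *BNA4* was 0.78, against 0.62 with all 4 arrays. The median log2 ratio of the members was 0.0533 with quantile normalization, -0.0901 with each array's median as its centre (where that of all genes was -0.0874) and -0.14 with chromosome-centred arrays. It was 0.0405 without *ccw12*Δ replicate 2 and up to 0.298 with another array left out. The causes were not tested. *ARO10*, whose values were known beforehand, passed under all 15 alternatives and *YIA6* was lost under 7.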
